A study of Homo sapiens with 6 samples.

Results

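The 37 genes described here encode the glucose transporters, the enzymes of glycolysis and gluconeogenesis, the enzymes that make and break down glycogen, and their regulators. They were taken by symbol from a list of genes of these pathways, drawn up with earlier results of these data known, and all 37 were found among the 23228 genes of the deposited tables. RNA sequencing was performed in Hep3B cells, an established human hepatocellular carcinoma line, with 3 libraries of control cells and 3 labelled PELP1-KD. The control cells carried a non-targeted shRNA, a short hairpin RNA that matches no intended mRNA, and the PELP1-KD cells carried shRNA against PELP1, a scaffold protein of chromatin and ribosome assembly complexes. Both groups were lentivirally transduced. By the labels, the PELP1-KD cells were selected with puromycin and are a stable pool of clones, so they represent 1 cell line and no time course. Which shRNA they carry is uncertain, since their titles give the first one and the protocol gives both. The labels do not say whether the replicates were separate cultures, so p-values here measure only the spread between these libraries, which may be technical.

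Glycolysis converts glucose to pyruvate in the cytosol. Hexokinase, phosphofructokinase and pyruvate kinase carry out its largely irreversible steps, and lactate dehydrogenase then reduces pyruvate to lactate. The healthy adult liver also runs the path in reverse, through pyruvate carboxylase, phosphoenolpyruvate carboxykinase, fructose bisphosphatase and glucose-6-phosphatase, to release glucose into the blood, and it stores glucose as glycogen. Many of these steps have tissue-specific isozymes, and liver tumors are known to exchange liver forms such as PKLR for forms of growing tissues such as PKM2 and HK2.

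Depth ranged from 26758363 to 34456542 reads on genes per library, which the authors deposited as estimated counts per gene, and 14537 genes passed edgeR's filter on low counts. The targeted gene, PELP1, stood at 94.5% of its control level (log2 fold change -0.08 ± 0.04 SE, edgeR adjusted p = 0.101; with the replicate number as a block -0.08, adjusted p = 0.0106). Without replicate 3 of PELP1-KD, PELP1 reached an adjusted p of 0.018 at -0.10. Each PELP1-KD value of PELP1 lay below each control value (4421 to 4840, against 4893 to 5101 normalized reads). The study reports lower PELP1 protein in Hep3B PELP1-KD cells by Western blot, which RNA counts do not measure. Since PELP1 RNA was not called, directions are those of the labels. All 8 hepatocyte markers examined were detected, and their summed level was 859048 to 873571 normalized reads in control and 754611 to 771243 in those labelled PELP1-KD, with 6 called lower and 2 called higher. Of 8 markers of other cell types, CDH5 and KRT5 had 0 reads in all libraries and PTPRC at most 5, whereas CD68 and LUM were called higher. In all, 4 of the 8 were tested, and 2 of these were not called. The summed level of that list was 1764 to 1927 normalized reads in control and 2635 to 2715 in those labelled PELP1-KD, and the part of either list in the results below was not tested.

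Of the 37 members, 35 were tested, 14 were called higher and 4 lower in those labelled PELP1-KD, and 17 were not called. A gene was called at an adjusted p below 0.05. Over all genes tested, 53.6% were called (26.8% higher and 26.7% lower). The share of members called in either direction, 51.4%, lay close to that of all genes. By direction, the calls of members were less even than those of all genes, with 14 higher and 4 lower. The median log2 fold change of the tested members was 0.09, against 0.00443 over all genes. Both called and at least 2-fold changed were SLC2A3 and PFKP, which were higher, and PKLR, which was lower, whereas 7.65% of all genes passed both thresholds (2.85% higher and 4.79% lower). The normalized reads of the groups did not overlap for 17 members that lay above control and 6 that lay below. They did not overlap for 58.8% of all genes tested, with 4293 above control and 4256 below. PFKP and PFKFB1 reached the minimum of the filter only in those labelled PELP1-KD, so their passing favored a rise, and HK1 and G6PC were not tested. In RNA from whole cultures, fewer cells with a transcript and less of it per cell cannot be told apart.

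**Figure D1:**
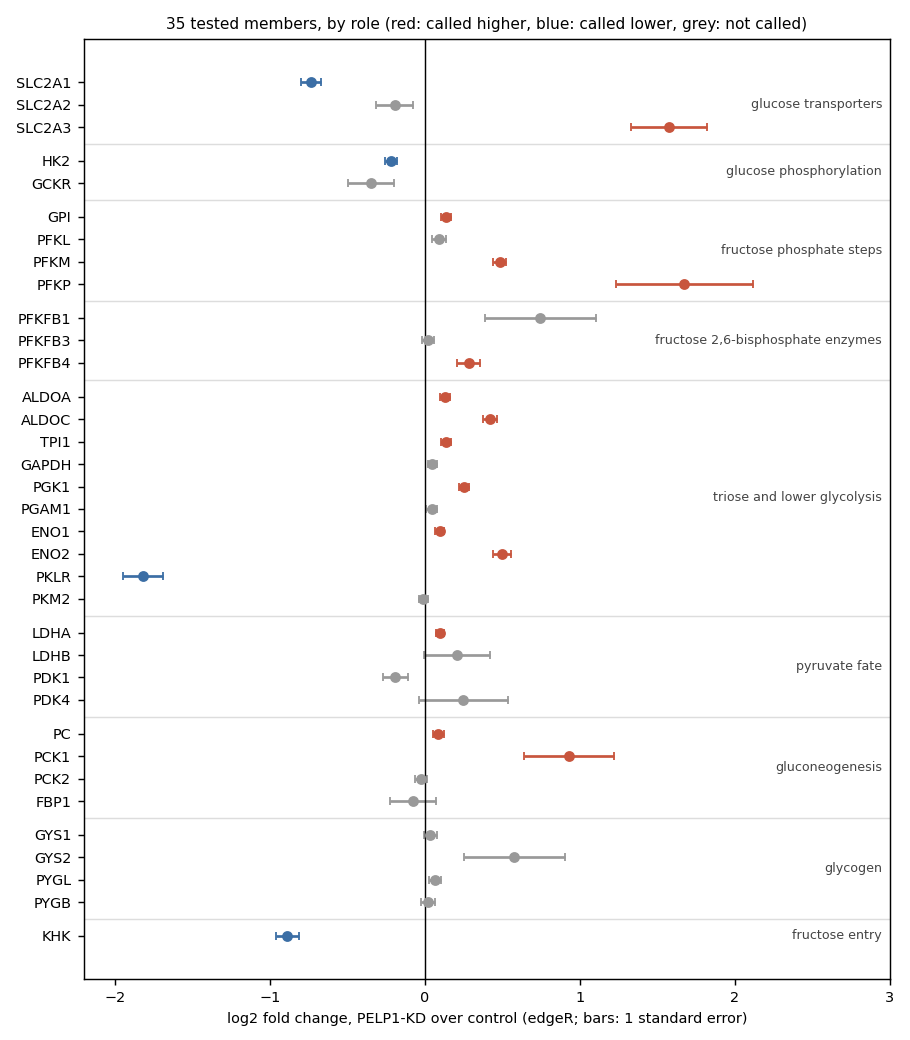
The plot of fold changes by role shows the log2 fold change of PELP1-KD over control on the horizontal axis for the 35 tested members, grouped by their step in the pathway, with bars of 1 standard error. PKLR lies farthest to the left at -1.82, SLC2A3 and PFKP lie farthest to the right at 1.57 and 1.68, and most enzymes of lower glycolysis lie between 0 and 0.50.

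Levels were compared between genes as reads per kilobase of exon, scaled to library size (RPKM). In control, GAPDH, the dehydrogenase of the triose step, was the most abundant member at 2869 ± 79.1 RPKM (SD, n = 3), and ranked 9 among all genes. ENO1, TPI1, PKM2, LDHA, ALDOA, PGK1 and PGAM1, which catalyze the other steps from fructose bisphosphate to lactate, followed between 134 and 469.8 RPKM. These 8 genes were the only members over 100 RPKM, and another 11 stood between 10 and 100 RPKM, including pyruvate carboxylase (PC) at 85.5 and HK2 at 18.2. In contrast, 9 members were under 1 RPKM. Several of these are isozymes or enzymes typical of glucose-releasing or other tissues, namely PCK1 at 0.163, GYS2 at 0.125, G6PC at 0.0357, LDHB at 0.858 and HK1 at 0.0209. All members together took between 1.17% and 1.21% of the reads in control and between 1.25% and 1.29% in those labelled PELP1-KD.

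**Figure D2:**
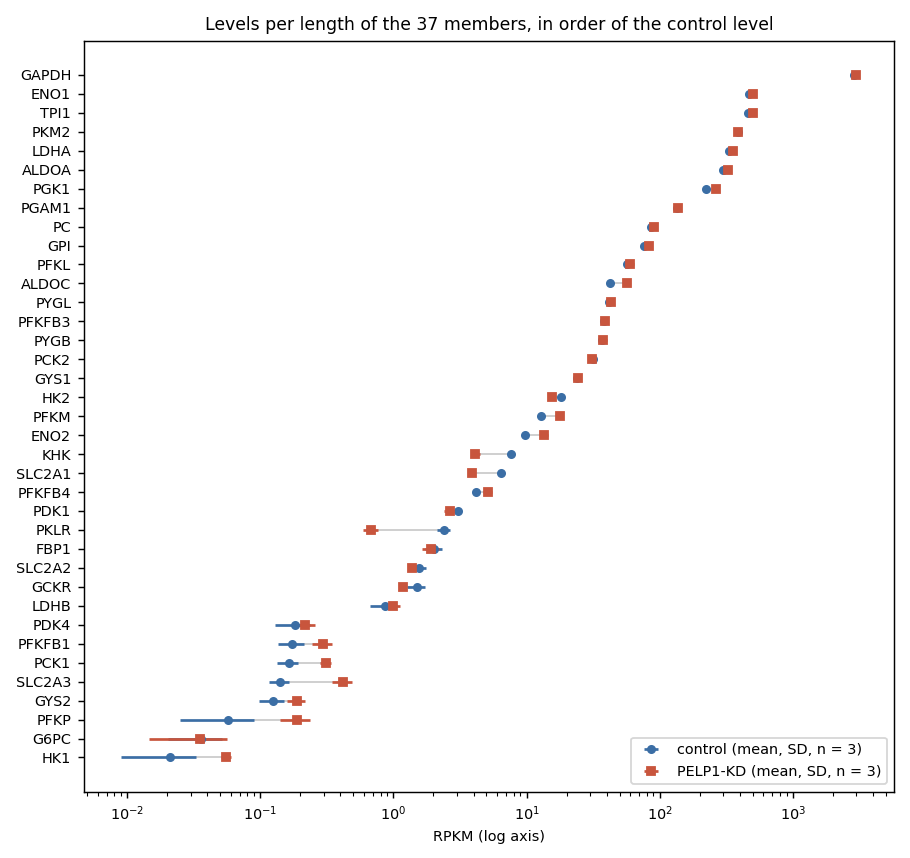
The plot of levels per length gives the mean RPKM on a log axis with its SD (n = 3) for all 37 members in order of the control level, with control as blue circles and PELP1-KD as red squares. The order runs from GAPDH at 2869 RPKM down to HK1 at 0.0209, and PKLR is the member whose symbols are farthest apart among those over 1 RPKM in control. HK1 and G6PC rest on few reads, so the order at the lower end is not fixed.

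Of the 3 glucose transporters, 1 was called lower, 1 higher and 1 was not called (66.7% called, against 53.6% of all genes). SLC2A1 encodes GLUT1, the basal transporter of most growing cells, and occupies positions 43391046 to 43424847 of chromosome 1 (hg19, minus strand). It had 721, 773 and 746 normalized reads in control and 460, 433 and 452 in those labelled PELP1-KD. Each PELP1-KD value lay below each control value, a fall to 60.1% of control (log2 fold change -0.73 ± 0.06 SE, edgeR adjusted p = 1.01e-08). SLC2A3 encodes the high-affinity transporter GLUT3, best known from neurons, and lies on chromosome 12 from 8071824 to 8088892. It was rare, with 20.2, 17.3 and 14.3 normalized reads in control and 49.1, 44.3 and 60.9 in those labelled PELP1-KD, so the groups did not overlap (log2 fold change 1.57 ± 0.25 SE, edgeR adjusted p = 2.01e-05). SLC2A3 has a close copy, SLC2A14, that was also called higher (0.66), and reads between such copies can be misassigned. The SLC2A3 values were whole numbers in all 6 libraries, which cannot tell whether a read was placed at the wrong copy. Misassignment was not tested. SLC2A2, the GLUT2 transporter of hepatocytes, had 169 ± 22.1 and 148 ± 8.02 normalized reads (SD, n = 3 each) and was not called (log2 fold change -0.19, 95% interval -0.52 to 0.13, adjusted p = 0.173). Without control replicate 3 it was called lower, at -0.29 with an adjusted p of 0.0489.

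**Figure D3:**
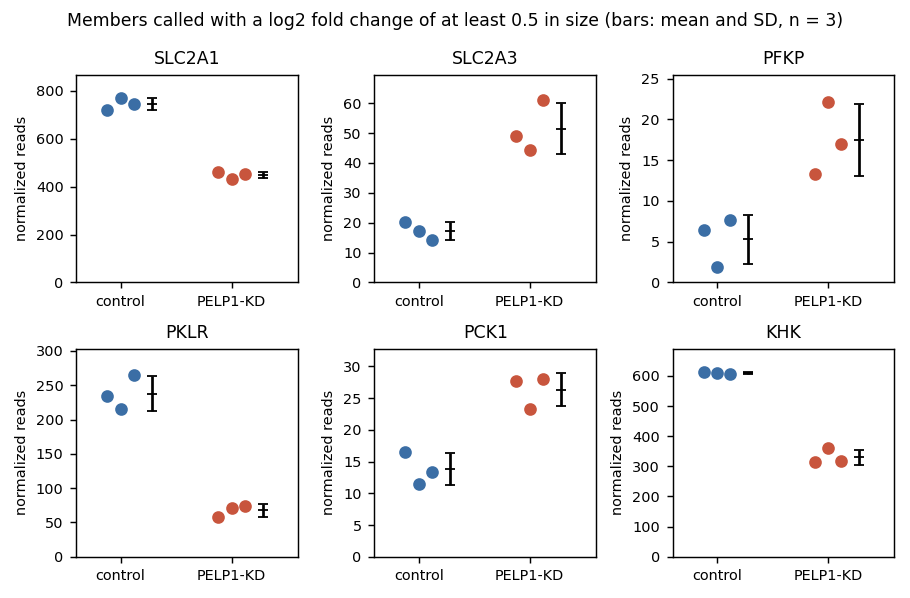
The plot of normalized reads by library shows the 6 members that were called with a log2 fold change of at least 0.5 in size, with 1 point per library and the mean and SD (n = 3) beside the points. In every panel the 3 points of one group lie apart from the 3 of the other, with SLC2A1, PKLR and KHK lower and SLC2A3, PFKP and PCK1 higher in those labelled PELP1-KD.

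Glucose is trapped in the cell by phosphorylation. HK2, the hexokinase typical of tumors, was the main form, with 3959 to 4184 normalized reads in control and 3420 to 3557 in those labelled PELP1-KD. It fell modestly, to 86.1% of control (log2 fold change -0.22 ± 0.04 SE, edgeR adjusted p = 0.000108). HK1, the form of most other tissues, had 4, 1 and 4 reads in control and 7, 7 and 7 in those labelled PELP1-KD, so that no level can be read from it. Fitted without a filter, it was not called (adjusted p = 0.098). GCKR, a regulatory protein of glucose phosphorylation in the liver, had 103 ± 15.6 and 80.7 ± 2.15 normalized reads (SD, n = 3 each). GCKR was not called (log2 fold change -0.35, 95% interval -0.76 to 0.06, adjusted p = 0.0556), although it was with the replicate number as a block (-0.35, adjusted p = 0.0466) or without control replicate 2 (-0.43, adjusted p = 0.0372).

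At the phosphofructokinase step, which commits glucose to glycolysis, the muscle isozyme rose and the liver isozyme was not called. PFKM had 1501 to 1570 normalized reads in control and 2116 to 2189 in those labelled PELP1-KD, a rise to 139.7% of control (log2 fold change 0.48 ± 0.04 SE, edgeR adjusted p = 1.6e-08). PFKL, the most abundant form, had overlapping values of 6060 ± 328 and 6461 ± 374 normalized reads (SD, n = 3 each). Its log2 fold change was 0.09 (95% interval -0.03 to 0.22, adjusted p = 0.0917), and it was called higher with the replicate block (adjusted p = 0.00209), without control replicate 3 (0.14, adjusted p = 0.0138) and without PELP1-KD replicate 1 (0.13, adjusted p = 0.0141). PFKP, the platelet form, lies on chromosome 10 from 3109712 to 3178997 and was close to the detection limit. It had 6.42, 1.92 and 7.63 normalized reads in control and 13.3, 22.2 and 17.0 in those labelled PELP1-KD. The groups did not overlap (log2 fold change 1.68 ± 0.44 SE, edgeR adjusted p = 0.00343), but the size is poorly fixed and ranged from 1.29 without control replicate 2 to 2.01 without control replicate 3. GPI, the isomerase one step earlier, rose to 109.8% of control (0.13, adjusted p = 0.00177).

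The PFKFB enzymes set the level of fructose 2,6-bisphosphate, which activates phosphofructokinase. PFKFB3, the main form, did not move detectably (log2 fold change 0.02, 95% interval -0.09 to 0.13, adjusted p = 0.708). PFKFB4 had 459.5 ± 23.9 normalized reads in control and rose to 559 ± 43.6 (SD, n = 3 each; log2 fold change 0.28, adjusted p = 0.00308 from edgeR). PFKFB1, the liver form, had at most 18.7 normalized reads in any library and was not called (0.75, 95% interval -0.25 to 1.75, adjusted p = 0.089).

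In the triose and lower steps of glycolysis, 6 of the 10 members rose, 1 fell and 3 were not called (70% called, against 53.6% of all genes). The rises of the abundant enzymes were small. TPI1, ALDOA and ENO1 had log2 fold changes of 0.14, 0.13 and 0.10 with adjusted p values of 0.000832, 0.00344 and 0.00823 from edgeR. ENO1 lost its call without control replicate 2 (0.08, adjusted p = 0.0564). PGK1, which makes the first ATP of the pathway, moved more clearly, from 16532 to 17248 normalized reads in control to between 19973 and 20385 in those labelled PELP1-KD (log2 fold change 0.25 ± 0.03 SE, edgeR adjusted p = 7.51e-07). The larger rises were in the less abundant forms. ALDOC, the brain aldolase, went from 2205 ± 106 to 2952 ± 124 normalized reads (SD, n = 3 each; log2 fold change 0.42, adjusted p = 2.18e-07). ENO2, the neuronal enolase, went from 738 ± 4.48 to 1039 ± 68.4 (SD, n = 3 each; log2 fold change 0.50, adjusted p = 5.88e-07). GAPDH, for which the study lists RT-qPCR primers and an antibody, had values from 115921 to 121897 and from 118474 to 127036 normalized reads. It was not called (log2 fold change 0.05, 95% interval -0.03 to 0.13, adjusted p = 0.183). The same 0.05 was called with the replicate block (adjusted p = 0.0124), and 0.08 without control replicate 3 (adjusted p = 0.0471). PGAM1 was likewise not called (0.04, adjusted p = 0.287).

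PKLR, the pyruvate kinase of liver and red cells, had the largest fall of any tested member. It occupies positions 155259084 to 155271225 of chromosome 1 (hg19, minus strand). It had 234, 215 and 265 normalized reads in control and 57.3, 71.2 and 73.9 in those labelled PELP1-KD. Every PELP1-KD value was thus well below every control value, and the mean fell to 28.4% of control (log2 fold change -1.82 ± 0.13 SE, edgeR adjusted p = 4.85e-10). PKM2, the symbol under which the tables list the gene of both the M1 and the M2 enzyme, took up nearly all pyruvate kinase reads and had a log2 fold change of -0.01 (95% interval -0.09 to 0.08, adjusted p = 0.813). Splicing between the M1 and M2 forms cannot be read from counts per gene.

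Of the 4 members that decide the fate of pyruvate, LDHA alone was called (25% called, against 53.6% of all genes). LDHA had a log2 fold change of 0.10 ± 0.03 SE (edgeR adjusted p = 0.00729) and values from 26543 to 27018 and from 28250 to 29098 normalized reads. LDHB, the heart form of lactate dehydrogenase, had only 33.9 to 57.3 normalized reads in any library and was not called (0.21, adjusted p = 0.438). PDK1 inhibits pyruvate dehydrogenase and so holds back the conversion of pyruvate to acetyl-CoA. It had overlapping values of 439 ± 9.99 and 385 ± 41.3 normalized reads (SD, n = 3 each) and narrowly missed the threshold (-0.19, 95% interval -0.41 to 0.03, adjusted p = 0.0506). The replicate block made it a call (adjusted p = 0.024), as did leaving out PELP1-KD replicate 2 (-0.28, adjusted p = 0.0106). PDK4, its fasting-induced relative, was rare and not called (0.25, adjusted p = 0.492).

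Of the 4 tested gluconeogenic members, 2 were called higher and none lower (50% called, against 53.6% of all genes). PCK2, the mitochondrial carboxykinase, had 2547 to 2568 normalized reads in control and 2504 to 2522 in those labelled PELP1-KD and was not called (log2 fold change -0.03, 95% interval -0.13 to 0.08, adjusted p = 0.605). PCK1, the cytosolic and hormone-controlled form, lies on chromosome 20 from 56136137 to 56141513 and had 16.5, 11.5 and 13.4 normalized reads in control and 27.6, 23.3 and 27.97 in those labelled PELP1-KD. Its groups did not overlap (log2 fold change 0.93 ± 0.29 SE, edgeR adjusted p = 0.011), but without control replicate 2 the call was lost (0.82, adjusted p = 0.0503). PC was called by a narrow margin with overlapping groups of 11398 ± 216 and 12110 ± 577 normalized reads (SD, n = 3 each; log2 fold change 0.09, adjusted p = 0.0474). Its call was lost without control replicate 1 (adjusted p = 0.137), control replicate 2 (0.15), PELP1-KD replicate 2 (0.0854) or PELP1-KD replicate 3 (0.159), with DESeq2 (0.076), with DESeq2's size factors in edgeR (0.0603), and with at least 10 reads required in every library (0.0614). FBP1 was not called (-0.08, 95% interval -0.49 to 0.33, adjusted p = 0.675). G6PC, the catalytic subunit that frees glucose for export, had between 1 and 5 reads in each library.

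None of the 4 glycogen members was called (0%, against 53.6% of all genes). GYS1, the widely expressed glycogen synthase, had a log2 fold change of 0.03 (95% interval -0.08 to 0.15, adjusted p = 0.483), and its liver form GYS2 had at most 21.0 normalized reads in any library (0.58, adjusted p = 0.148). The phosphorylases that release glucose units from glycogen were present in like amounts per length, PYGL at 41.5 and PYGB at 36.9 RPKM in control. Their log2 fold changes were 0.07 (95% interval -0.04 to 0.17, adjusted p = 0.169) and 0.02 (95% interval -0.10 to 0.14, adjusted p = 0.731).

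KHK, the ketohexokinase that admits fructose to the pathway past phosphofructokinase, fell. It lies on chromosome 2 from 27309611 to 27323619 and had 611, 610 and 607 normalized reads in control and 314, 359 and 317 in those labelled PELP1-KD. The control values were nearly identical and each PELP1-KD value lay far below them, at a mean of 54.2% of control (log2 fold change -0.89 ± 0.07 SE, edgeR adjusted p = 3.62e-09).

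Shares of isozymes within a family compare genes of the same library, and so do not depend on the scaling between libraries. For 12 families, the share of each isozyme in the family's reads per kilobase was computed, and 1 share per family was tested with a two-sided exact permutation test, for which 0.1 is the smallest p that 3 against 3 can give. The groups did not overlap for that share in 8 of the 12 families (66.7%), with p = 0.1 each by the exact permutation test and 0.15 after Benjamini-Hochberg adjustment over the 12, so none could pass the threshold. Leaving aside the hexokinases, tested on HK1, and the PFKFB enzymes, tested on PFKFB1, because neither gene passed the filter through both groups, it was 6 of 10 families (60.0%). The 58.8% of all genes tested is for normalized reads of single genes, an unlike measure, and no such share was computed for other families. SLC2A1 made up 79.2% ± 2.23 of the 3 transporters in control and 68.5% ± 0.408 in those labelled PELP1-KD (SD, n = 3 each), with SLC2A3 going from 1.70% to 7.33%. These shares leave out other transporter genes of the family. SLC2A8 and SLC2A6 were more abundant in control, at 60.9 and 22.9 RPKM against 6.47 for SLC2A1, and were called higher (0.60 and 0.47). SLC2A12 and SLC2A14 were also called higher, and SLC2A10 was called lower. PFKL made up 81.4% ± 0.683 and 76.9% ± 0.715 of phosphofructokinase (SD, n = 3 each), in exchange mainly with PFKM. Pyruvate kinase was overwhelmingly PKM2 in both groups, and PKLR contributed 0.611% ± 0.0501 in control and 0.175% ± 0.0202 in those labelled PELP1-KD (SD, n = 3 each). ALDOA went from 87.5% to 85.1% of the aldolases as ALDOC went from 12.5% to 14.8%. ENO1 went from 92.9% to 95.3% of the enolases, since ENO3 went from 5.19% to 2.12%. HK2 held 90.3% ± 0.643 and 95.3% ± 0.163 of the hexokinase signal (SD, n = 3 each), and HKDC1 9.57% and 4.38%. The shares of LDHA, GYS1, PYGL and PDK1 overlapped between the groups (exact permutation p = 0.7, 0.2, 0.5 and 0.4).

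**Figure D4:**
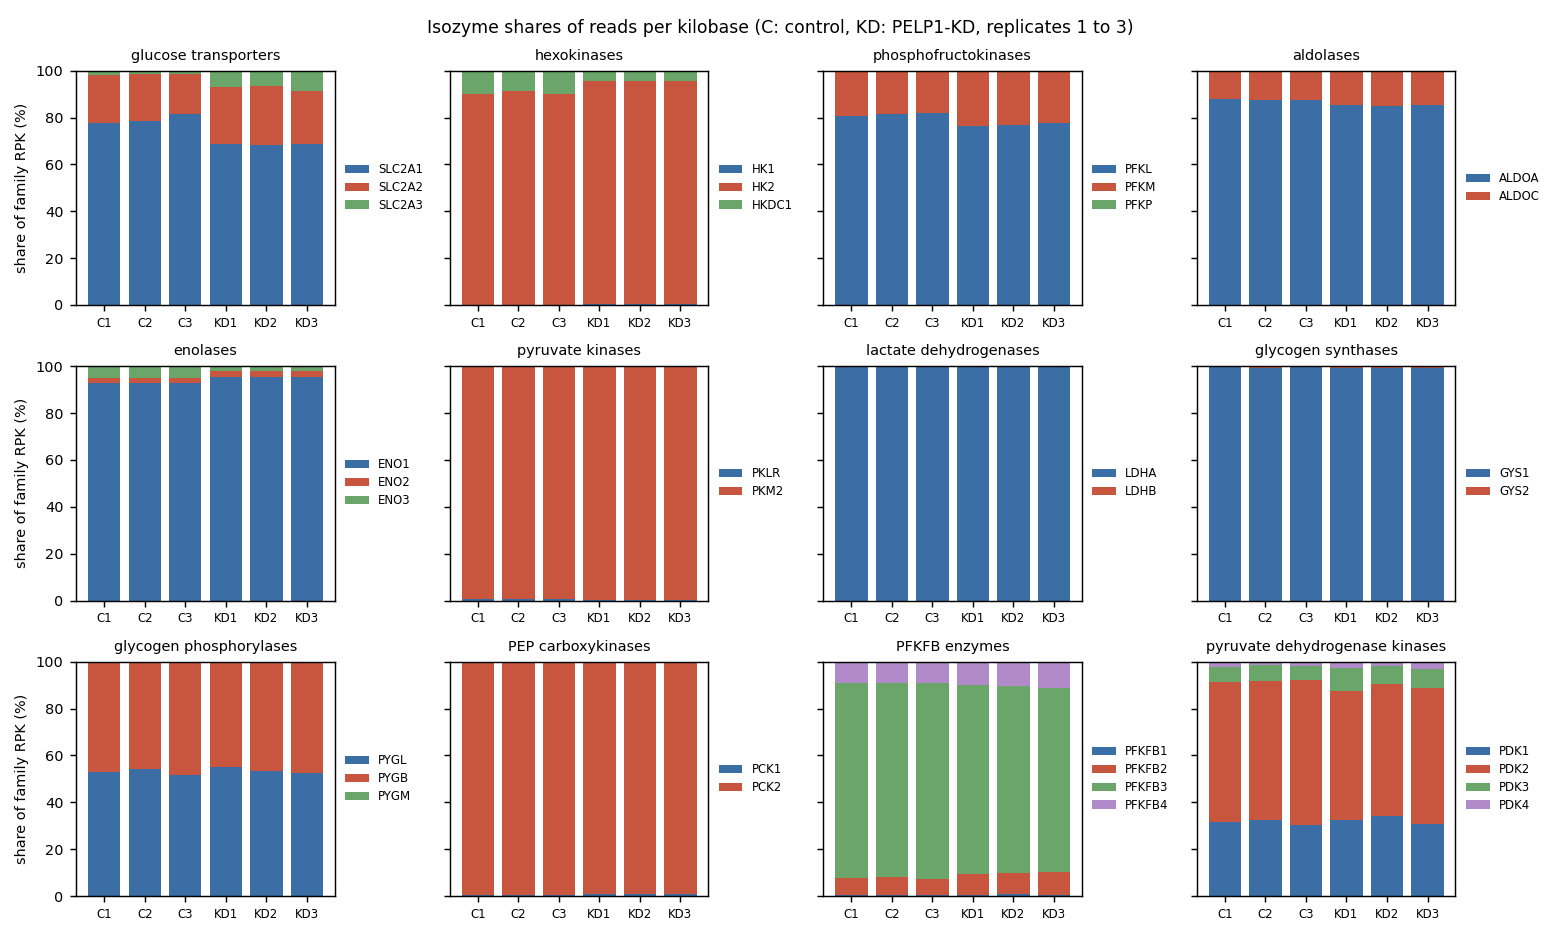
The plot of isozyme shares stacks, for each of 12 families and each of the 6 libraries, the percentage of the family's reads per kilobase from each isozyme, leaving out isozymes under 0.1% in every library. The SLC2A1 bars end between 77.5% and 81.7% in control and between 68.1% and 68.8% in those labelled PELP1-KD, and single isozymes fill nearly the whole bar for pyruvate kinase, lactate dehydrogenase, glycogen synthase and PEP carboxykinase.

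Promoter sequences were looked at for letters of the hypoxia response core, ACGTG or GCGTG, and of the E-box CACGTG, because both are well known from glycolytic promoters. RefSeq sequences of GRCh38.p14, 1 window per gene around 1 of its starts, were found for 33 of the 37 members. SLC2A3, PCK1, GYS2 and KHK had no entry. The start used need not be the outermost one of the gene, as for GAPDH, whose window lies inside the gene. Other starts were not examined, and which start these cells use was not tested. Of the 33, 11 (33.3%) held ACGTG on either strand, against 21.6% of 27305 promoters, and 21 (63.6%) held ACGTG or GCGTG, against 48.4%. CACGTG, which contains ACGTG on both strands, was in the promoters of ALDOC, GAPDH, PKLR and LDHA (12.1%, against 7.43% of all promoters). Matches were counted on each strand, so each CACGTG counts as 2, and PGK1, ALDOC and LDHA each show 4 marked stretches below. The 4 promoters printed here, 5′ to 3′ on the strand of the gene with ACGTG and GCGTG or their complements in capitals, are the lowered transporter gene SLC2A1 and the 3 called members with the most matches, PGK1 (4), ALDOC (5) and LDHA (6). They lie at chr1:42958819-42959118 (minus), chrX:78103998-78104297 (plus), chr17:28576846-28577145 (minus) and chr11:18394313-18394612 (plus) of GRCh38.p14.
SLC2A1: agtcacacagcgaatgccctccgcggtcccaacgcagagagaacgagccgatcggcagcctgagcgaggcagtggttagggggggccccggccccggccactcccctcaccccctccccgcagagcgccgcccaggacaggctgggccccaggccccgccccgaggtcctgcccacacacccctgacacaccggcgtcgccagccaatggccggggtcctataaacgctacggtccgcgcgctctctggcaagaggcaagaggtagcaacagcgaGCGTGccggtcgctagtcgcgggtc
PGK1: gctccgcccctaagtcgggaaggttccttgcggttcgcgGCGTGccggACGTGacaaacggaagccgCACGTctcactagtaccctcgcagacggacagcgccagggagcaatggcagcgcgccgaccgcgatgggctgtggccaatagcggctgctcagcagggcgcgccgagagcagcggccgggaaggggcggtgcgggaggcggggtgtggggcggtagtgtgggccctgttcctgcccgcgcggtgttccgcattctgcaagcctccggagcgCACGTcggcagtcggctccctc
ALDOC: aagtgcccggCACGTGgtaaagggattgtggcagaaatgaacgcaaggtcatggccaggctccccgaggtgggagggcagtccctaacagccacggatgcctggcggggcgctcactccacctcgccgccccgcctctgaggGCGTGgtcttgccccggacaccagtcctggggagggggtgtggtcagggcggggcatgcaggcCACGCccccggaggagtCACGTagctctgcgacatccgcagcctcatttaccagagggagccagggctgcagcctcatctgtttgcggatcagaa
LDHA: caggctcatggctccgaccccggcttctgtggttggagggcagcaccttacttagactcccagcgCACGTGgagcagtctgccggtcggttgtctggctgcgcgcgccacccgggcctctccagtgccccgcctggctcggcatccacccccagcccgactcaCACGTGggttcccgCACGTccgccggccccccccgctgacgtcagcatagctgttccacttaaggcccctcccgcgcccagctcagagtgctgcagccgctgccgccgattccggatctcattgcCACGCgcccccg
These matches show letters only, and binding was not measured. Members with matches moved both ways and not at all. HK2 has 3 matches and was called lower (-0.22), LDHA has 6 and was called higher (0.10), PKLR has 2 and fell, GAPDH has 2 and was not called, and PFKM has 0 and rose (0.48). In PKLR and in GAPDH, the 2 matches are the 2 strands of 1 CACGTG.

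Further genes of glucose metabolism were examined from lists that did not include the members. Among 27 other glycolysis and gluconeogenesis genes, 20 were tested, 6 were called higher and 7 lower, with a median log2 fold change of -0.11. The 4 with at least a 2-fold change all fell, namely the glucose transporter gene SLC2A10 (-3.10, to 11.6% of control), the muscle mutase PGAM2 (-2.85), the hexokinase HKDC1 (-1.42) and the muscle enolase ENO3 (-1.23, to 42.6% of control). Of 24 tested genes of pyruvate and lactate handling, 9 were called higher and 8 lower (median 0.05), and LDHD, a D-lactate dehydrogenase, fell at least 2-fold (-1.72). LDHD had 20, 11 and 18 reads in control and 5, 4 and 4 in those labelled PELP1-KD. It reached the minimum of the filter only in control, so its passing favored a fall. Of 24 other glycogen genes tested, 6 were called higher and 8 lower (median -0.09). Those that fell at least 2-fold were PHKA1 (-1.73), a subunit of phosphorylase kinase, and PPP1R3C (-1.57) and PPP1R3G (-1.05), which bring a phosphatase to glycogen. PPP1R3G had 38, 34 and 37 reads in control and 18, 8 and 21 in those labelled PELP1-KD. Only control reached the minimum of the filter in all 3 libraries, so the passing of PPP1R3G favored a fall.

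In the pentose phosphate pathway, which branches off at glucose 6-phosphate to make NADPH and ribose, 6 of 8 tested genes were called lower and 1 higher (median log2 fold change -0.15), and none changed 2-fold. Of 20 tested regulators of glucose metabolism, 7 were called higher and 6 lower (median 0.02), with ARRDC4, a glucose-induced arrestin gene, at -2.35. ARRDC4 had 29, 23 and 24 reads in control and 4, 3 and 6 in those labelled PELP1-KD. As with LDHD, only control reached the minimum of the filter, so its passing favored a fall. Of 23 tested hypoxia response genes outside glucose metabolism, 7 were called higher and 7 lower (median 0.03), and CA9 fell at least 2-fold (-1.13). In the pentose phosphate list 87.5% of the tested genes were called, and in the other lists between 58.3% and 70.8%, where all genes gave 53.6%.

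**Figure D5:**
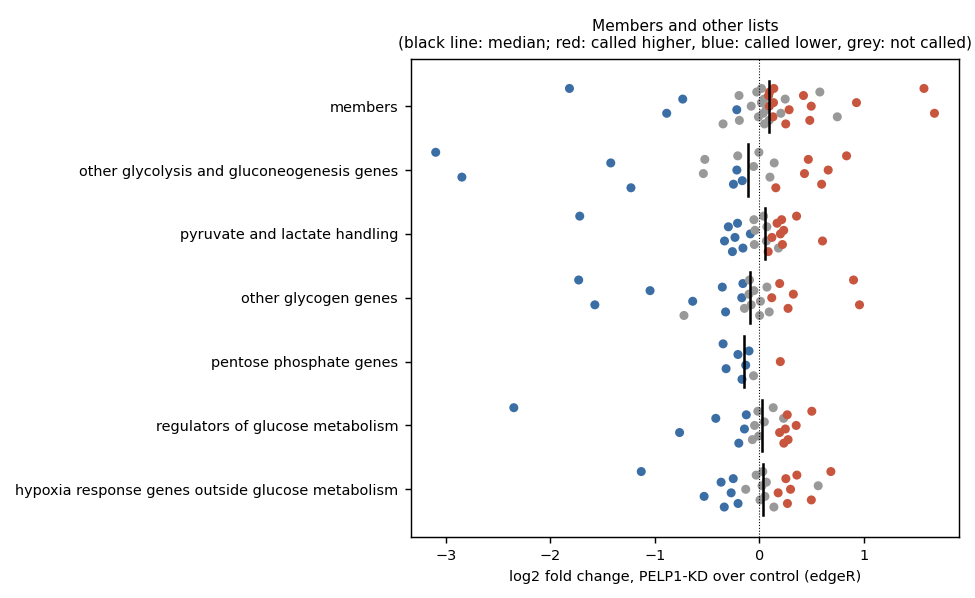
The plot of fold changes by list shows 1 point per tested gene, the log2 fold change of PELP1-KD over control on the horizontal axis, and the median of each list as a black line. All called genes of the other lists beyond a 2-fold change lie on the left, whereas the members have points beyond 2-fold on both sides. Among those on the left, LDHD, PPP1R3G and ARRDC4 rest on few reads, and only control reached the minimum of the filter in all 3 libraries.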

How the data were processed

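RNA sequencing reads of 3 control and 3 PELP1-KD Hep3B libraries were analyzed, grouped by their treatment labels. By the methods of the study, reads were mapped to hg19 with TopHat2 and counted with HTSeq, but the submitters' processing notes name HISAT2 and featureCounts. The headers give featureCounts 1.5.0-p1, run by strand on exons with a minimum mapping quality of 2, with reads that match several places or genes shared out as fractions. What the authors deposited are therefore estimated counts, 1 value per gene, not normalized. GAPDH, TPI1, PGK1, PGAM1 and LDHA had values that were not whole in all 6 libraries, so some of their reads were shared with other places. The labels name TRIzol and a library kit that removes ribosomal RNA, and the study's methods name another RNA extraction kit.

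Counts were rounded and tested with edgeR 4.0.16 in R 4.3.3 (TMM, filterByExpr, glmQLFit with robust estimation, glmQLFTest), adjusting p by Benjamini-Hochberg over 14537 genes. Standard errors (SE) were obtained by dividing the log2 fold change by the root of the F statistic, and 95% intervals use 4 degrees of freedom. The p-values come from edgeR's moderated test, which has more degrees of freedom, so the intervals are wider than the p-values imply. An interval can therefore include 0 for a called gene, as for PC (-0.013 to 0.188). Normalized reads are reads divided by each library's TMM-scaled size, itself divided by the geometric mean of the 6. Shares were tested with scipy 1.17.1.

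Some genes of the lists are counted but not reported here by name. The members and gene lists were chosen with earlier results of these data known. Values by library are given for members called with a log2 fold change of at least 0.5 in size, and genes of other lists are named where called and at least 2-fold changed. Same-numbered libraries of the groups deviated together (correlations of 0.336, 0.247 and 0.665 over 6369 genes, which are not independent), but so did control 2 with PELP1-KD 1 (0.417) and control 1 with PELP1-KD 2 (0.244), and the labels give no shared origin. Since each same-numbered correlation exceeded 0.1, the replicate number was also used as a block. The other alternatives were 2 normalizations, DESeq2 1.42.0, 2 filters, a threshold of 0.01, unrounded counts and each library left out. On counts simulated for this comparison, edgeR recovered 200 of 200 changed genes with 10 false calls among 14439. Their median log2 fold change was 1.02 for the raised and -1.01 for the lowered genes. Recovery of genes that moved less, as most called members did, was not tested.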

Additional observations from a re-analysis of the deposited data

How the results depend on the processing

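Of the 35 tested members, 21 kept their call and direction under all alternatives run, 2 (PFKP and PFKFB1) did so in all but 1, where they were not tested, 3 lost their call in at least one (ENO1, PC and PCK1), 5 gained one (SLC2A2, GCKR, PFKL, GAPDH and PDK1) and 4 that were not called turned direction. With at least 10 reads in every library, 33 members could be tested, without PFKP and PFKFB1, and the members called higher with a 2-fold change fell from 2 to 1, while the genes called lower with a 2-fold change fell from 697 to 424. With single libraries left out, the log2 fold changes that turned direction ranged from -0.19 to 0.045 for FBP1, from -0.018 to 0.045 for PFKFB3, from -0.035 to 0.015 for PKM2 and from -0.034 to 0.065 for PYGB. With the replicate number as a block, 16 members were called higher and 6 lower, and the replicate block ended no call of a member. The other normalizations moved the median of all genes by less than 0.01 on the log2 scale, and turned no member. PDK1, near the threshold, was called lower with DESeq2's size factors (adjusted p = 0.0459), upper-quartile normalization (0.0464), no filter (0.0489) and at least 10 reads in every library (0.045). Depth limits the rare members, and HK1, G6PC, PFKP, PCK1, GYS2 and PFKFB1 rest on few reads.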
